A study of Mus musculus with 12 samples.

Results

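The genes described here are 10 members of the epidermal growth factor (EGF) system, read by gene symbol from 12 RNA-seq count tables of mouse kidney. They comprise 6 ligand genes (Hbegf, Areg, Ereg, Tgfa, Btc and Nrg1) and the 4 ErbB receptor genes (Egfr, Erbb2, Erbb3 and Erbb4), out of 40213 gene symbols listed. All 10 passed the low-count filter, as did 17841 genes in all, but Areg and Ereg passed only through the adenine-fed groups and so had to differ from control. Counts, medians or scores over the members are therefore not used as support for any result below.

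Kidneys of C57BL/6 mice were profiled in 3 groups of 4 libraries. Control mice received saline intraperitoneally and a normal diet. Mice of the chronic kidney disease (CKD) group received saline intraperitoneally and adenine labelled 2%. Mice of the colchicine group received colchicine intraperitoneally at 0.3 mg/kg per day together with adenine, and their labels give 2, 3, 4 and 5% adenine for replicates 1, 2, 3 and 4. Dietary adenine forms crystals that injure the tubules. Colchicine, a tubulin-binding plant alkaloid, is used against inflammation. Every library is labelled batch 1, and the age and sex of the mice are not among the labels used here. The libraries are called biological replicates, but no label ties one to a named animal, so every p-value refers to the spread among these libraries only.

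Ligands of the EGF family are made as membrane-bound precursors and released by proteases, chiefly ADAM17 and ADAM10. They bind ErbB receptors, which pair with each other and signal through Ras, the ERK kinases and phosphoinositide 3-kinase. EGFR binds EGF, TGF-alpha and amphiregulin, and heparin-binding EGF-like growth factor, betacellulin and epiregulin bind EGFR and ErbB4. Neuregulin 1 binds ErbB3 and ErbB4. ErbB2 has no known ligand of its own and acts as a partner, and ErbB3 has little kinase activity. In the healthy kidney EGF is made mainly by the thick ascending limb and distal convoluted tubule, and EGFR signalling after tubular injury is known to act in both repair and fibrosis.

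Library totals were 22.6 to 31.7 M (1000000 counts) in control, 22.2 to 27.4 M in CKD and 23.9 to 38.3 M with colchicine. Mitochondrially encoded transcripts took 41.5 to 46.7% of control counts, 16.7 to 17.3% in CKD and 14.6 to 21.8% with colchicine, so the choice of scaling matters here. Levels are counts per 1000000 (CPM) scaled by the trimmed mean of M-values (TMM), and fold changes come from edgeR's quasi-likelihood test with Benjamini-Hochberg adjustment over all 17841 genes. Scaled by library totals only, the median gene rose by 1.05 on the log2 scale between control and CKD, against 0.04 with TMM. Upper-quartile scaling put it at 0.17 in CKD and 0.30 with colchicine against control, where TMM gave 0.10. The kidney label was checked with 8 proximal tubule markers, which summed to 8478 to 9180 CPM in control, 832 to 1054 in CKD and 481 to 795 with colchicine. Colchicine replicate 1 stood apart from the other colchicine libraries, and results that rest on it are given with and without it.

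Areg and Btc lie next to each other on chromosome 5, in a cluster ordered Epgn, Ereg, Areg and Btc with 0 protein-coding genes between neighbours in the RefSeq order. The 250 bases before each start site are shown to set these neighbours side by side: Areg was higher in CKD, and Btc was lower with TMM scaling, a call that several alternatives below lose and library totals turn. The RefSeq promoter table (build GRCm38.p6) held 6 of the 10 members. Capitals mark matches, on either strand, to the cyclic AMP response element TGACGTCA, the AP-1 site TGANTCA, the TATA box TATAAA or the TEAD site GGAATG.
Areg, chr5:91139349-91139598, plus strand: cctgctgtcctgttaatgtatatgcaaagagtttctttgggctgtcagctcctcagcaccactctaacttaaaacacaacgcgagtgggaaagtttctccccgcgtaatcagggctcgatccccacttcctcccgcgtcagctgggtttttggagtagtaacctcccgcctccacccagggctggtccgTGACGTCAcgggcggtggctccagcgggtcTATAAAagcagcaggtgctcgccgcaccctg
Btc, chr5:91402995-91403244, minus strand: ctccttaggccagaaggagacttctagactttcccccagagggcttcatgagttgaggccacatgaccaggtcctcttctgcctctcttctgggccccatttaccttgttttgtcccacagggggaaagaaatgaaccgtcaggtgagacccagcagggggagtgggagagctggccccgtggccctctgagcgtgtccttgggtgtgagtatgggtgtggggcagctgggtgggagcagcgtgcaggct
The Areg window held a TGACGTCA 61 to 54 bases before the start and a TATAAA 31 to 26 bases before it. Among 32851 promoter windows of the same length, 1.55% held TGACGTCA, 6.75% TGANTCA, 12.4% TATAAA and 12.6% GGAATG. The Btc window held none of these letters, and of the other members in the table only Erbb2 held a match, a GGAATG 88 to 83 bases before its start. A match is a description of the letters and was not tested for binding.

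The comparison of CKD with control asked which members change in the diseased kidney. In CKD, Areg, Ereg, Nrg1 and Erbb4 were higher than in control, Btc and Erbb3 were lower with TMM scaling, and Hbegf, Tgfa, Egfr and Erbb2 did not pass the test. These 4 members called higher compare with 34.1% of all genes tested, and the 2 called lower with 33.4%, by edgeR at an adjusted p below 0.05. Those shares lie near the background, so the counts say nothing particular about the family. Areg and Ereg, among the 4 called higher, passed the filter only through the adenine-fed groups. Scaled by library totals only, 8 members were higher, against 74% of all genes, and Btc and Erbb3 turned to log2 values of 0.43 and 0.14. In whole tissue, fewer cells of a type and less RNA per cell cannot be told apart.

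Areg encodes amphiregulin, a ligand of EGFR that injured epithelium and several immune cells make. Its level in control replicates 1 to 4 was 0, 0.102, 0.0685 and 0.116 CPM, from 0, 2, 1 and 2 counts. In CKD it was 1.37, 1.32, 1.13 and 0.905 CPM, from 39, 37, 38 and 31 counts, and with colchicine 1.20, 0.565, 0.725 and 0.661 CPM. Every library of both adenine groups lay above every control library, while the 2 adenine groups overlapped. Areg was 15.4-fold higher in CKD than in control (log2 3.94 ± 0.50 SE, 95% interval 7.31-fold to 32.3-fold, edgeR adjusted p = 4.69e-06). This fold rests on 5 control counts in all, in a gene that passed the filter only through the adenine-fed groups. Leaving out 1 library moved the log2 value between 3.55 and 4.25.

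Ereg encodes epiregulin, a low-affinity ligand of EGFR and ErbB4. Control replicates 1 to 4 held 0.117, 0.204, 0.205 and 0.464 CPM. The CKD libraries held 1.93, 1.57, 1.99 and 1.78 CPM, and the colchicine libraries 3.42, 1.88, 1.59 and 2.19 CPM. Again no adenine library reached down to the control range, and colchicine replicate 1 was the highest of all. The CKD level was 7.24-fold that of control (log2 2.86 ± 0.38 SE, edgeR adjusted p = 6.57e-06). This fold rests on 17 control counts in all, in a gene that passed the filter only through the adenine-fed groups. Its call is therefore no independent support for a difference from control. An antisense gene, Gm19610, shares 141 exon bases with Ereg in the GENCODE vM21 annotation and held 0 to 4 counts per control library, 8 to 12 in CKD and 16 to 25 with colchicine. The sources used here do not say whether counting used strand, so some of these reads could be shared.

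Nrg1 encodes neuregulin 1, the ligand of ErbB3 and ErbB4. It stood at 19.4, 16.6, 14.7 and 16.5 CPM in control and at 26.1, 22.1, 28.5 and 23.2 CPM in CKD, with no overlap. It was 1.49-fold higher (log2 0.57 ± 0.17 SE, edgeR adjusted p = 0.00756). With colchicine the 4 libraries spread over 32.2, 17.6, 18.6 and 22.6 CPM, and replicates 2 and 3 fell within the control range. A noncoding gene on the opposite strand, Gm26578, shares 482 exon bases with Nrg1 and held 14 to 47 counts per control library against 215 to 332 for Nrg1. It held 57 to 69 counts in CKD and 70 to 186 with colchicine.

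Btc encodes betacellulin. Control libraries held 5.95, 3.46, 5.20 and 7.30 CPM, CKD libraries 3.24, 2.78, 4.05 and 4.53 CPM and colchicine libraries 3.64, 2.71, 2.32 and 2.64 CPM. Control replicate 2 lay inside the CKD range, so the groups overlapped. The CKD level was 1.49 times lower (log2 -0.58 ± 0.23 SE, edgeR adjusted p = 0.0346). This call was lost without control replicate 1, 3 or 4 or CKD replicate 1 or 2 (edgeR adjusted p up to 0.143), under limma-voom, under upper-quartile scaling and without the low-count filter, and the direction flipped under library totals only.

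Hbegf encodes heparin-binding EGF-like growth factor, a stress-induced ligand. Its control libraries were spread over 18.5, 23.3, 39.3 and 32.3 CPM, and the CKD libraries held 22.1, 28.5, 28.2 and 22.1 CPM. All CKD values lay inside the control range. The difference was -0.16 ± 0.29 (log2, SE; edgeR adjusted p = 0.643), with a 95% interval from 0.572-fold to 1.39-fold. With this spread, changes anywhere within that interval remain compatible with the values. The interval holds for TMM scaling only. Under library totals only, Hbegf stood at 0.83 and passed (edgeR adjusted p = 0.0244).

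Tgfa encodes TGF-alpha, a second high-affinity ligand of EGFR. Control libraries held 10.3, 10.3, 9.72 and 8.35 CPM and CKD libraries 11.7, 11.2, 11.6 and 10.6 CPM. The groups did not overlap, but the difference of 0.23 ± 0.16 (log2, SE) did not pass the test (edgeR adjusted p = 0.231). In a fit of only those 8 libraries it was 0.24 ± 0.10 and passed (edgeR adjusted p = 0.0371), as it did under upper-quartile scaling, at 0.36 (0.0466).

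**Figure D1:**
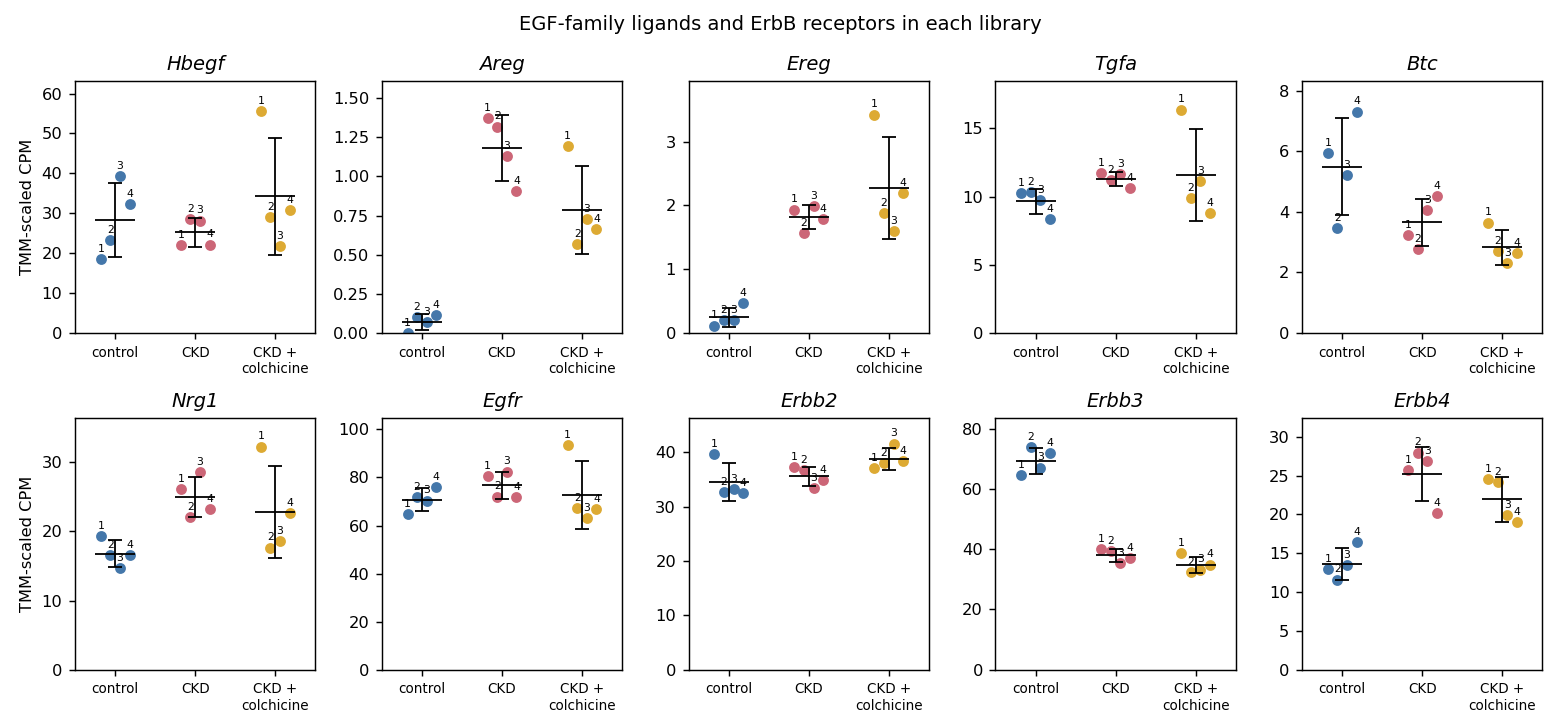
TMM-scaled CPM (y axis, from 0, one scale per gene) of the 10 members in each library, numbered by replicate, with the group mean (long bar) and SD (whiskers, n = 4). Areg and Ereg lie near 0 in all control libraries, Erbb3 falls into a high control group and a low pair of adenine groups under this scaling, and colchicine replicate 1 is the highest colchicine library for Hbegf, Areg, Ereg, Tgfa, Btc, Nrg1, Egfr, Erbb3 and Erbb4.

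Among the receptors, Erbb3 and Erbb4 moved in opposite directions with TMM scaling while Egfr and Erbb2 did not pass the test. Erbb3 encodes the neuregulin receptor with little kinase activity of its own. It stood at 64.6, 74.0, 67.1 and 71.9 CPM in control, at 40.0, 39.5, 35.5 and 36.9 CPM in CKD and at 38.6, 32.5, 33.2 and 34.9 CPM with colchicine. The control libraries lay well apart from all 8 adenine libraries. Erbb3 was 1.83 times lower in CKD (log2 -0.87 ± 0.08 SE, edgeR adjusted p = 6.06e-08), a direction that flipped to 0.14 under library totals only. It had the smallest p of the 10 members in this comparison.

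Erbb4 encodes the other neuregulin receptor, which has an active kinase. Its control libraries held 13.0, 11.6, 13.5 and 16.4 CPM, its CKD libraries 25.7, 28.0, 26.9 and 20.2 CPM and its colchicine libraries 24.6, 24.2, 19.9 and 19.0 CPM. The lowest adenine library was above the highest control library. Erbb4 was 1.85-fold higher in CKD (log2 0.89 ± 0.13 SE, edgeR adjusted p = 2.14e-05), and leaving out 1 library moved the log2 value between 0.81 and 0.99. The count ratio of Erbb4 to Erbb3 within a library, which needs no scaling, was 0.157 to 0.228 in control and 0.546 to 0.759 in CKD.

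Egfr encodes the EGF receptor itself. It stood at 64.9, 72.0, 70.3 and 76.1 CPM in control and at 80.4, 72.0, 82.4 and 71.8 CPM in CKD. The groups overlapped and differed by 0.11 ± 0.11 (log2, SE; edgeR adjusted p = 0.377), with a 95% interval from 0.920-fold to 1.27-fold. Under upper-quartile scaling it passed, at 0.25 (edgeR adjusted p = 0.0274). Its ratio to Erbb3 counts was 0.973 to 1.06 in control and 1.82 to 2.32 in CKD.

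Erbb2 encodes the ligandless partner receptor. It held 39.7, 32.7, 33.2 and 32.4 CPM in control and 37.3, 36.7, 33.4 and 34.9 CPM in CKD. The difference of 0.04 ± 0.08 (log2, SE) did not pass the test (edgeR adjusted p = 0.639), with a 95% interval from 0.918-fold to 1.16-fold. The intervals of Egfr and Erbb2 hold for TMM scaling only.

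**Figure D2:**
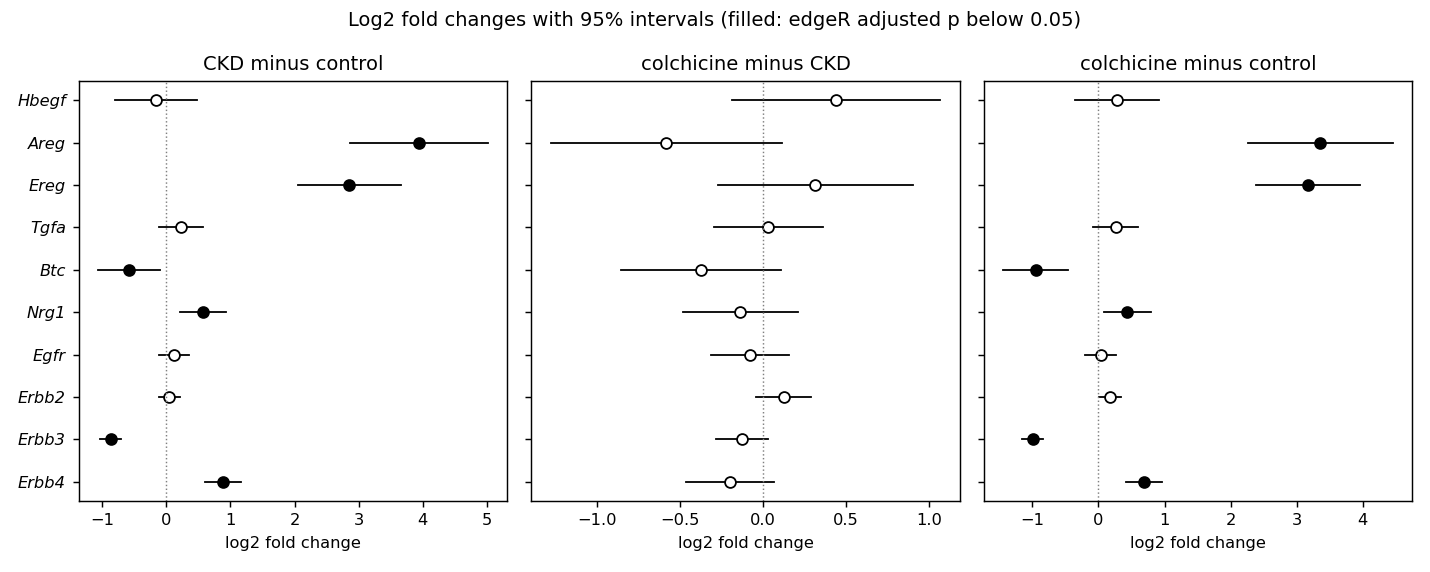
Log2 fold changes (x axis) of the 10 members in 3 comparisons, with 95% intervals as bars and filled points for an edgeR adjusted p below 0.05. Points are filled for Areg, Ereg, Nrg1 and Erbb4 to the right of 0 and for Btc and Erbb3 to the left in both comparisons with control, and no point is filled between colchicine and CKD. All points are from the fit with TMM scaling. Under library totals only, which is not drawn, Btc and Erbb3 turned to log2 values above 0 in both comparisons with control.

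Egf, the founding ligand of the family, is not among the 10 members. It fell more than any family gene tested. It held 674, 613, 675 and 789 CPM in control and 15.6, 20.02, 21.9 and 13.4 CPM in CKD, a level 38.8 times lower (log2 -5.28 ± 0.31 SE, edgeR adjusted p = 1.45e-08). Summed marker genes of the segments that make EGF were lower too. The 6 thick ascending limb markers summed to 2167 to 2747 CPM in control and 1390 to 1704 in CKD. Of these, 4 were lower and 1 higher. The 5 distal convoluted tubule markers summed to 595 to 707 and 325 to 399 CPM, also with 4 lower and 1 higher. Their part in the fall of Egf was not tested. The further ligand genes Nrg2 and Nrg4 did not pass the test, at 0.23 ± 0.35 and -0.78 ± 0.38 (log2, SE; edgeR adjusted p = 0.575 and 0.0839), and Epgn held at most 6 counts in a library.

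To compare ligands with each other, counts were divided by gene length and expressed as a share of a pool of 8 ligand genes. These were Egf, Hbegf, Nrg1, Tgfa, Btc, Areg, Ereg and Epgn. The pool leaves out Nrg2, at 1.04 CPM in control and 1.21 in CKD, Nrg4, at 3.03 and 1.77, and Nrg3. The shares are therefore not shares of all ErbB ligands. This comparison was chosen after the values were seen. Egf held 88.7 ± 1.81% of the ligand pool in control and Hbegf 7.34 ± 2.12% (SD, n = 4). In CKD, Hbegf held 46.6 ± 2.66%, Egf 16.1 ± 1.88%, Nrg1 14.0 ± 1.65%, Tgfa 11.1 ± 1.02%, Btc 5.66 ± 1.56%, Areg 4.30 ± 0.79% and Ereg 1.96 ± 0.28%. With the longest transcript in place of all exons as the gene length, the CKD share of Nrg1 was 19.1%. Hbegf thus held the largest share of the 8 genes in every CKD library, while its own level showed no detected change with TMM scaling.

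The count ratio of Hbegf to Egf was 0.0274 to 0.0582 in control and 1.29 to 1.65 in CKD. Among the 4 receptor genes per length, Erbb3 led in control with 44.3 ± 1.98%, ahead of Erbb2 at 26.5 ± 3.03%, Egfr at 24.8 ± 1.25% and Erbb4 at 4.33 ± 0.59%. Erbb2 and Egfr lay within their spread of each other. In CKD, Erbb2 held 31.6 ± 1.19%, Egfr 31.1 ± 2.00%, Erbb3 28.1 ± 1.14% and Erbb4 9.25 ± 1.07%. The order of the first 3 was then closer, with the ranges of Erbb2 and Egfr overlapping and those of Erbb4 far below. These shares describe messages and carry no measure of protein.

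**Figure D3:**
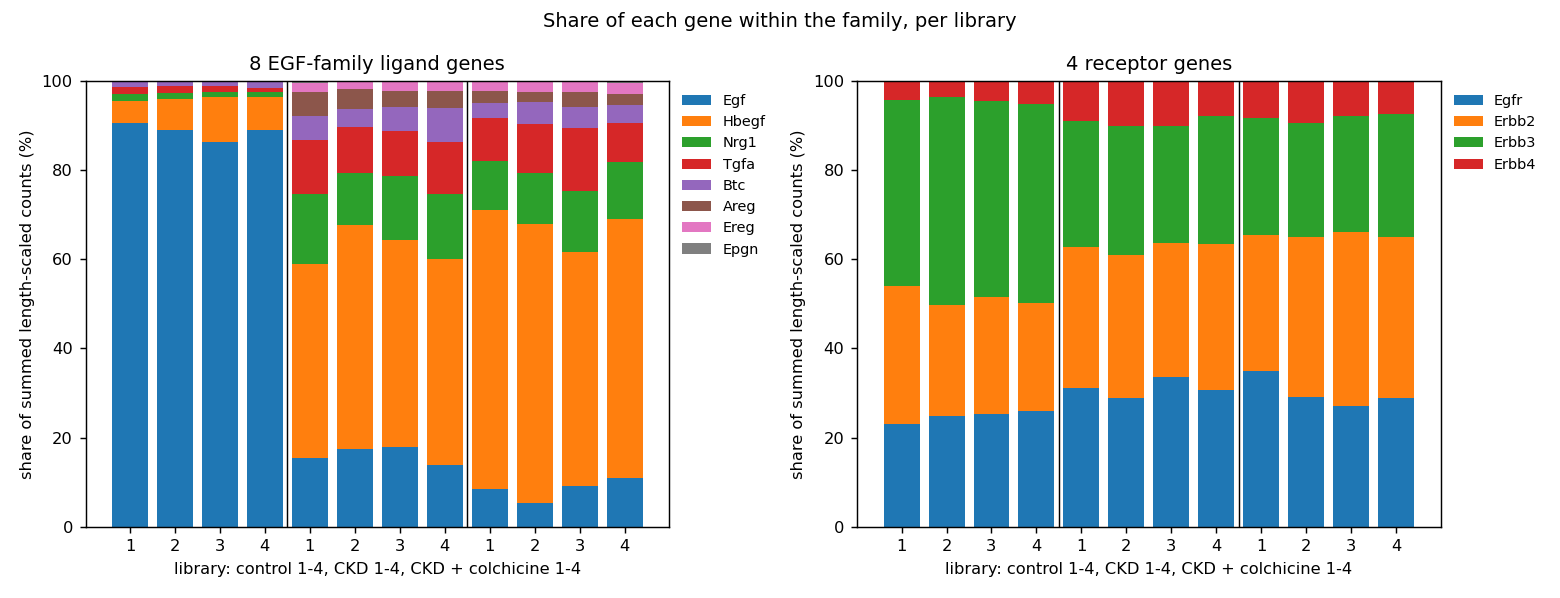
Share of length-scaled counts (y axis, %) taken by each of 8 ligand genes (left) and 4 receptor genes (right) in each library, ordered control, CKD and colchicine replicates 1 to 4. Egf fills 86.2 to 90.6% of the ligand bar in control and 13.9 to 17.9% in CKD, and Hbegf fills 43.7 to 50.2% in CKD.

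Markers of several other cell types also differed between control and CKD. In CKD all 8 injured tubule markers were higher, with sums of 179 to 215 CPM in control and 1741 to 1897 in CKD. All 7 fibroblast and mural markers were higher, from 447 to 498 to between 2706 and 3245 CPM, and all 8 macrophage and dendritic cell markers, from 83.6 to 97.4 to between 1527 and 1598 CPM. All 7 collecting duct markers were lower, from 393 to 530 to between 92.5 and 113 CPM. For Areg, which lymphocytes and basophils also make, T and NK cell markers summed to 4.55 to 6.11 CPM in control and 33.0 to 47.6 in CKD, with 5 of 6 tested higher. The 7 neutrophil, basophil and mast cell markers summed to 1.57 to 3.54 and 68.9 to 95.3 CPM. Only 3 of them, S100a8, S100a9 and Csf3r, were tested, and all 3 were higher. Ly6g, Mcpt8, Cpa3 and Fcer1a failed the low-count filter, so no basophil or mast cell marker was tested. Fcer1a, the mast cell and basophil receptor gene, held no count in any control or CKD library. Schwann cell markers, relevant to Nrg1 and Erbb3, summed to 9.15 to 11.9 CPM in control and 9.01 to 11.7 in CKD, within the same range. The part of these cell types in the members' levels was not tested.

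The genes whose pattern over the 12 libraries was most like that of Areg, by the root mean square difference of control-centred log2 CPM, were F630028O10Rik (0.28), Smpdl3b (0.29) and Tlr2 (0.32). No gene lay within 0.2 of Areg. Nearest to Erbb3 were Ankrd42 (0.051), Igf2r (0.072) and Snx27 (0.073), and 582 genes lay within 0.2 of it. These distances describe likeness only.

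Colchicine was compared with CKD to ask whether the members differ under treatment. None of the 10 members passed the test, by edgeR (adjusted p from 0.225 for Areg to 0.898 for Tgfa), DESeq2 or limma-voom. By edgeR 0 had an unadjusted p under 0.05, and the smallest was 0.0954, for Areg. Of all genes tested, 15% were called in either direction. The labelled adenine differs between these groups in replicates 2 to 4, so the part of colchicine and that of the labelled dose cannot be told apart there.

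Hbegf had the largest positive difference, 0.44 ± 0.29 (log2, SE; edgeR adjusted p = 0.302), with a 95% interval from 0.878-fold to 2.10-fold. Without colchicine replicate 1 it stood at 0.10 (edgeR adjusted p = 0.766), below Erbb2 at 0.14. It held 55.6, 29.1, 21.7 and 30.7 CPM with colchicine, against 22.1 to 28.5 in CKD, so that replicates 1, 2 and 4 lay above and replicate 3 below every CKD library. Areg had the largest negative difference, -0.58 ± 0.33 (edgeR adjusted p = 0.225), with an interval from 0.412-fold to 1.08-fold. Its colchicine replicates 2, 3 and 4 lay below every CKD library and replicate 1 lay among them. Without replicate 1 the difference was -0.85 (edgeR adjusted p = 0.055). T and NK cell markers summed to 21.4 to 26.3 CPM with colchicine, below their 33.0 to 47.6 in CKD, with 2 of 6 tested lower, and their part in the level of Areg was not tested.

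The other ligands gave 0.31 ± 0.28 for Ereg, -0.37 ± 0.23 for Btc, -0.14 ± 0.16 for Nrg1 and 0.03 ± 0.15 for Tgfa (log2, SE). Without colchicine replicate 1 these were 0.043, -0.52, -0.36 and -0.18. Tgfa held 16.4, 9.91, 11.2 and 8.77 CPM in the colchicine libraries, with replicate 1 again above all CKD values. Among the receptors the differences were -0.20 ± 0.12 for Erbb4, -0.13 ± 0.07 for Erbb3, 0.12 ± 0.08 for Erbb2 and -0.08 ± 0.11 for Egfr. Their 95% intervals ran from 0.725-fold to 1.05-fold for Erbb4, 0.820-fold to 1.02-fold for Erbb3, 0.973-fold to 1.22-fold for Erbb2 and 0.806-fold to 1.11-fold for Egfr. A missed threshold does not show that the groups were alike.

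Replicate 1, the colchicine library labelled 2% adenine as in CKD, decided several of these values. Against the CKD mean it held 2.20 times the Hbegf level, 1.88 times the Ereg level, 1.45 times the Tgfa level, 1.29 times the Nrg1 level and 1.22 times the Egfr level. For Egfr the other 3 colchicine libraries held 0.822 to 0.875 times the CKD mean. Without replicate 1, 3 of 10 members were lower than in CKD and 0 higher. In that fit 3519 of all 18140 genes tested were lower and 2882 higher, or 35.3% in either direction. They were Nrg1 at -0.36 (edgeR adjusted p = 0.0206), Egfr at -0.23 (0.0227) and Erbb3 at -0.18 (0.0488). With replicate 1 as the only colchicine library, Tgfa alone was called, at 0.53 (edgeR adjusted p = 0.0321), where the lone sample is assumed to vary like the other groups. Injured tubule markers summed to 2764 CPM in replicate 1 and to 1847 to 2003 in the other 3, and fibroblast and mural markers to 4274 and to 3380 to 4026. Their part in these members' levels was not tested.

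**Figure D4:**
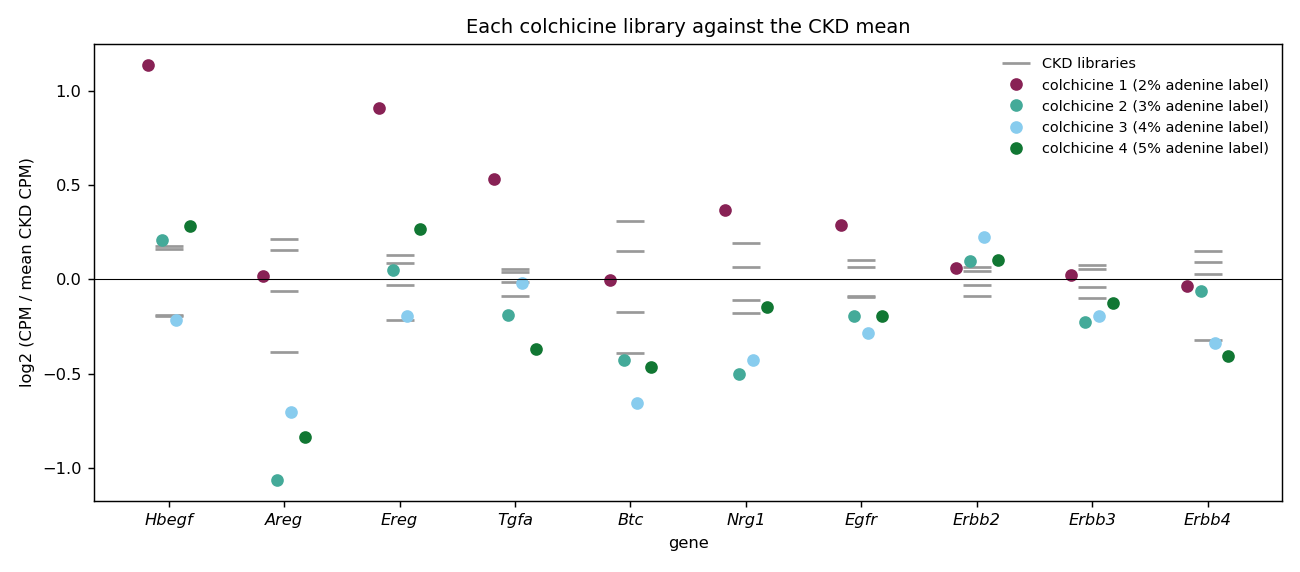
Log2 ratio to the mean CKD level (y axis) of each colchicine library (points, coloured by replicate and labelled adenine) and each CKD library (grey bars) for the 10 members (x axis). Replicate 1 lies highest for 9 members, all but Erbb2, and replicates 2 to 4 lie below 0 for Areg, Tgfa, Btc, Nrg1, Egfr, Erbb3 and Erbb4.

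Egf held 15.0, 5.04, 7.59 and 11.6 CPM with colchicine, and its difference from CKD of -0.86 ± 0.28 (log2, SE) did not pass the test (edgeR adjusted p = 0.0575). Of the 3 further ligand genes tested, Egf, Nrg2 and Nrg4, 1 was called lower by DESeq2, by limma-voom, at a minimum count of 30 and without colchicine replicate 1. The thick ascending limb markers summed to 811 to 1264 CPM with colchicine, below every CKD library, with 5 of 6 lower, and the distal convoluted tubule markers to 259 to 366 CPM, overlapping CKD. Their part in the level of Egf was not tested. In the ligand pool, Hbegf held 59.0 ± 4.75% and Egf 8.44 ± 2.30% with colchicine. The count ratio of Hbegf to Egf was 2.64 to 5.78, above all CKD libraries, and that of Ereg to Btc was 0.687 to 0.940 against 0.394 to 0.598 in CKD. These ratios were chosen after the values were seen and carry no test. The ratio of Erbb4 to Erbb3 counts was 0.545 to 0.744, within the CKD range but for its lower end.

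Colchicine was also compared with control, which shows what differed from the healthy kidney under treatment. This comparison shares its control libraries with that of CKD, so the sets of calls are not independent. Areg, Ereg, Nrg1 and Erbb4 were higher, against 37.1% of all genes, and Btc and Erbb3 were lower with TMM scaling, against 33.4%. Here too, Areg and Ereg passed the filter only through the adenine-fed groups. Areg stood at 3.36 ± 0.51 (log2, SE; edgeR adjusted p = 2.93e-05), Ereg at 3.17 ± 0.37 (1.65e-06) and Erbb4 at 0.69 ± 0.13 (0.000222). Btc stood at -0.95 ± 0.23 (edgeR adjusted p = 0.00164) and Erbb3 at -0.996 ± 0.08 (1.09e-08), and under library totals only they turned to 0.081 and 0.037.

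Nrg1 stood at 0.44 ± 0.17 (edgeR adjusted p = 0.0313) with overlapping groups. It lost the call without control replicate 2, 3 or 4, without colchicine replicate 4, under limma-voom and without colchicine replicate 1, where it stood at 0.22 (edgeR adjusted p = 0.1). Erbb2, at 0.17 ± 0.08, did not pass (edgeR adjusted p = 0.0656). It passed at 0.24 without control replicate 1, its highest control library (edgeR adjusted p = 0.00911), and at 0.19 without colchicine replicate 1 (0.0407). Hbegf, Tgfa and Egfr stood at 0.28 ± 0.29, 0.26 ± 0.16 and 0.04 ± 0.11 and did not pass (edgeR adjusted p = 0.411, 0.161 and 0.773). Under upper-quartile scaling Tgfa, Egfr and Erbb2 passed, at 0.45, 0.23 and 0.37 (edgeR adjusted p = 0.0151, 0.0398 and 0.00131), and Erbb2 passed at a minimum count of 30 too, at 0.19 (0.0374). With colchicine replicate 1 as the only treated library Hbegf, Tgfa and Egfr passed, at 1.02, 0.80 and 0.44, and Btc did not, at -0.55. Tgfa passed with a slope on the labelled adenine as well, at 0.61.

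A further 4 lists of genes of the pathway were read around the members, and each is described by its counts and its median, beside a median of 0.04 and shares of 34.1% called higher and 33.4% lower for all genes in CKD against control. Ligand shedding genes stood highest, with 8 of 11 called higher and 0 lower by edgeR (1 lower by DESeq2 and by limma-voom) and a median log2 value of 0.75. The protease gene Adam17, which cuts Areg, Hbegf and Tgfa from the membrane, rose from 22.5 ± 2.07 to 48.7 ± 3.10 CPM (log2 1.11 ± 0.10 SE, edgeR adjusted p = 8.72e-08). Rhbdf2, which carries ADAM17 to the cell surface, rose by 1.63 ± 0.09, Adam12 by 2.88 ± 0.14 and the myeloid protease gene Adam8 by 4.87 ± 0.27. None of the 11 was called between colchicine and CKD by edgeR, and 1 was lower by DESeq2 and by limma-voom. The 3 with an unadjusted p under 0.05 were Adam9, Adam15 and Adam17 at -0.47, 0.24 and -0.21 (edgeR adjusted p = 0.0596, 0.102 and 0.139). Without colchicine replicate 1, where 35.3% of all genes were called, 1 was higher and 3 were lower.

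Feedback inhibitors of the receptors and of Ras had 8 of 15 tested members higher and 0 lower in CKD, with a median of 0.41. Spred3, a Ras pathway inhibitor, stood at 1.87 ± 0.20, and the ubiquitin ligase genes Cblb and Cbl, whose products remove active EGFR, at 0.96 ± 0.10 and 0.86 ± 0.10 (log2, SE). Between colchicine and CKD 0 were called by edgeR, DESeq2 or limma-voom, and 2 had an unadjusted p under 0.05 by edgeR. The smallest p-values were those of Socs4, Lrig1 and Errfi1, at -0.29, -0.21 and -0.84 (edgeR adjusted p = 0.0945, 0.132 and 0.157). Without colchicine replicate 1, 5 were lower, where 3519 of all 18140 genes tested were lower.

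Adaptors and kinases downstream of the receptors had 8 of 20 higher and 8 lower in CKD, near the shares of all genes, and a median of -0.13. Akt1, a kinase of the phosphoinositide 3-kinase branch, the adaptor gene Shc1 and the Ras gene Nras stood at 0.89, 0.82 and 0.77. The Ras exchange factor gene Sos1 was lower with colchicine than in CKD, at -0.41 ± 0.10 (edgeR adjusted p = 0.0127), and Nras higher, at 0.27 ± 0.06 (0.0131). Hras and Map2k2, named after their values were seen, were the other genes higher with colchicine, at 0.32 and 0.27. Under library totals only, 19 of the 20 were higher in CKD and 0 lower, where 74% of all genes were higher.

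Genes that ERK signalling induces had 9 of 15 higher in CKD and 1 lower, with a median of 0.62. The 5 not called were Spry4, Dusp4, Dusp6, Etv5 and Egr1, at -0.12, 0.04, -0.02, -0.26 and -0.09, named after their values were seen. Spry2 and Spry4 are also among the feedback inhibitors above. The transcription factor gene Etv4 rose from 0.536 ± 0.0455 to 4.13 ± 0.599 CPM (log2 2.93 ± 0.22 SE, edgeR adjusted p = 1.15e-08), and Myc from 6.75 ± 1.34 to 39.4 ± 5.81 CPM (2.54 ± 0.30). The AP-1 gene Fosl1 was near 0 in control, at 0.0436 ± 0.0555 CPM, and at 2.86 ± 0.305 CPM in CKD. At these control levels Fosl1 and Etv4 passed the low-count filter only through the adenine-fed groups. Both are counted among the 9 called higher, so that count and the median partly rest on the filter. The gene called lower was Ccnd1, cyclin D1, at -0.90, named after its values were seen, and 0 were called lower under library totals only. Etv4 was called between colchicine and CKD too, at 6.56 ± 1.28 against 4.13 CPM (0.67 ± 0.16, edgeR adjusted p = 0.0168), and the call was lost without CKD replicate 4 or colchicine replicate 2. Phlda1 and Spry2, at 0.47 and 0.18, did not pass (edgeR adjusted p = 0.0743 and 0.301).

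**Figure D5:**
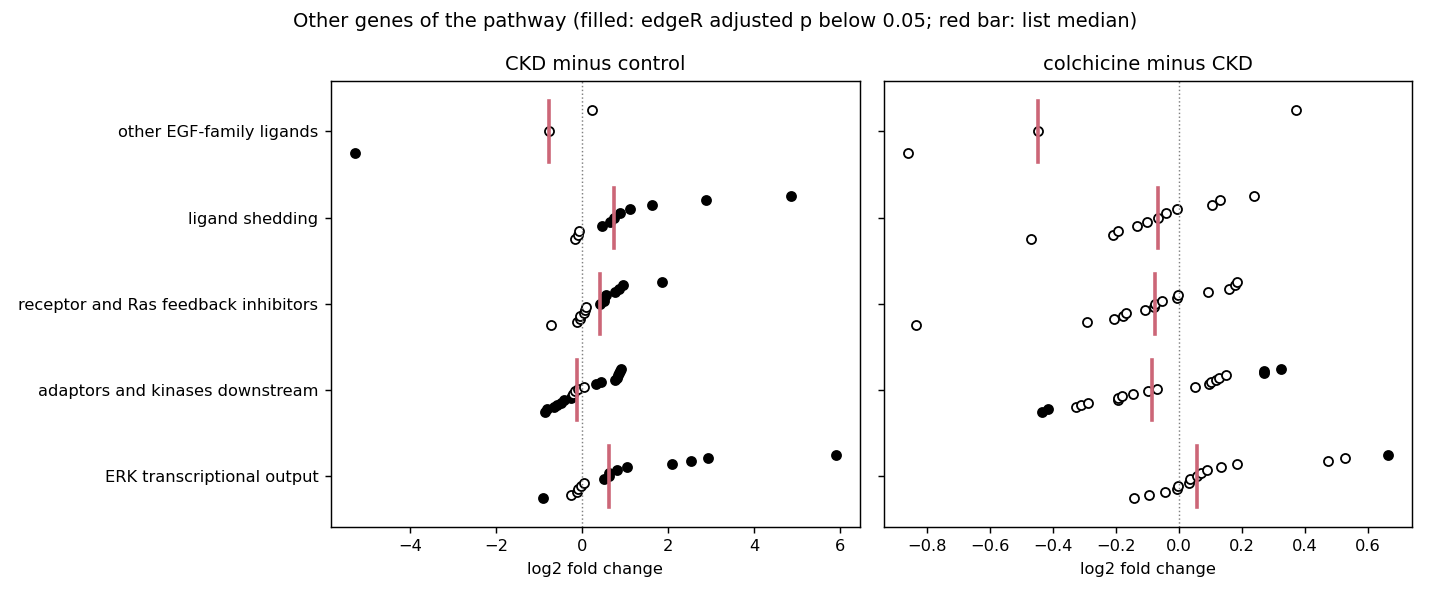
Log2 fold changes (x axis) of the genes of 5 pathway lists (y axis) in CKD against control (left) and colchicine against CKD (right). Filled points have an edgeR adjusted p below 0.05 and the red bar is the list median. In CKD the medians of shedding genes, feedback inhibitors and ERK output lie to the right of 0 and that of adaptors and kinases at -0.13.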

How the data were processed

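Bulk RNA-seq of 12 kidney tissue libraries was compared between 3 groups of 4 libraries, with groups and replicate numbers taken from the sample titles. Per the labels' protocols, RNAiso Plus was used for RNA and a CORALL kit for the libraries. The submitters' processing notes name fastp, STAR, Salmon and the GRCm39 build. The sources used here give neither versions nor the annotation. Deposited values are taken as the authors' estimated counts (expected counts) per gene rounded to whole numbers, and no further rounding was needed.

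The tests used edgeR 4.0.16 (R 4.3.3). After filterByExpr at a minimum count of 10 and TMM scaling, the 12 libraries entered one robust quasi-likelihood fit of the 3 groups. Two-sided p-values were adjusted by Benjamini-Hochberg over all genes tested, with calls at 0.05. Levels are CPM per library or mean ± SD. Levels between genes were compared per kilobase of exons in GENCODE vM21. The model code was tested on simulated counts. Library totals of 22.2 to 38.3 M (1000000 counts) set the depth, and low levels such as those of Areg and Ereg in control rest on 0 to 8 counts per library. No source used here says whether molecular identifiers entered the counting.

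The members, the pathway and marker lists and the tests were chosen with earlier results of these data known. Named genes are the 10 members, Egf, in each pathway list the 3 genes with the smallest p in CKD against control and the 3 in colchicine against CKD, and the 3 genes most like the members with the highest and lowest log2 fold change in CKD. 1 gene that these criteria select is not reported here. The deviations of same-numbered libraries from their group means correlated between -0.28 and 0.19, with 1 of 12 pairs above 0.1, so the numbers were not taken to pair the samples. Alternatives were DESeq2 1.42.0, limma-voom (limma 3.58.1), RLE, upper-quartile and library-total scaling, leaving out mitochondrial transcripts, other count filters, a fit of 8 libraries, the labelled adenine, a replicate block and leaving out each library. Another gene length was added after seeing the data.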

Additional observations from a re-analysis of the deposited data

Results flagged for a closer look

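In 33 sets of 4 libraries, given by the 10 members and Egf in 3 groups, 2 held a library whose gap to the nearest other, divided by the range, exceeded Dixon's critical value for 4 samples. Chance alone gives about 1 such set in 20. Egfr stood at 93.6 CPM in colchicine replicate 1, against 63.0 to 67.1 CPM in the other 3 colchicine libraries. Erbb2 stood at 39.7 CPM in control replicate 1, against 32.4 to 33.2 CPM in the other 3 control libraries.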

How the results depend on the processing

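The counts of members called kept within 1.5 times of 6 in both comparisons with control under all alternatives, at 5 to 8 for CKD and 5 to 9 for colchicine. The members behind these totals changed. Under library totals only, Hbegf, Tgfa, Egfr and Erbb2 were called higher in CKD, and Btc and Erbb3 lost their calls. There 74% of all genes were higher, against 34.1% higher and 33.4% lower in the main fit, so the totals follow the background. Between colchicine and CKD the count of 0 became 1 with colchicine replicate 1 as the only treated library and ranged from 0 to 3 when 1 library was left out. With the replicate number as a block, 6, 0 and 6 members were called in the 3 comparisons, as without it. Under library totals only, log2 values turned to 0.83 for Hbegf, 0.43 for Btc and 0.14 for Erbb3 in CKD, and to 0.081 for Btc and 0.037 for Erbb3 with colchicine against control. That setting moves the median of all genes to 1.05 and 1.14. With colchicine replicate 1 alone, Areg, Nrg1, Egfr and Erbb3 turned to 0.015, 0.36, 0.28 and 0.017 against CKD. With a slope on the labelled adenine read at 2%, Nrg1, Egfr and Erbb4 turned to 0.085, 0.14 and 0.00036. Leaving out 1 library moved Hbegf between -0.32 and 0.029 in CKD, Tgfa between -0.18 and 0.13 against CKD, and Hbegf between -0.062 and 0.47 and Egfr between -0.11 and 0.10 against control. The causes were not tested.

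Over the same alternatives other than library totals, ligand shedding genes, feedback inhibitors and adaptors called higher in CKD stayed at 8, 8 to 9 and 8, and ERK output genes at 8 to 9. In the main fit 34.1% of all genes were higher in CKD. Under library totals these list counts were 11, 14, 19 and 13, where 74% of all genes were higher. Between colchicine and CKD, adaptors and kinases ranged from 0 to 5 higher and 0 to 7 lower. Of all genes, 15% were called there in either direction in the main fit and 35.3% without colchicine replicate 1. Depth limits Areg and Ereg, at 0 to 8 control counts per library.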
